A study of Mus musculus with 7 samples.

Results

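The p53 target genes described here are Cdkn1a, Mdm2, Ccng1, Bbc3, Bax, Trp53inp1, Phlda3, Eda2r, Zmat3 and Sesn2, chosen by name as targets in cell-cycle arrest and cell death. Of these 10 genes 9 had a probe set of their own, out of 22180 genes on the array. Bax, which forms pores in the mitochondrial membrane during apoptosis, had no probe set annotated to it alone and is not followed. Each of the 9 had 1 probe set, so no choice among probe sets entered their values.

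The tissue was gastric corpus, the region of the mouse stomach that secretes acid, from transgenic Atp4b-DTR mice aged 8 to 12 weeks, with RNA read on 1-colour arrays. All groups carried the transgene, a diphtheria toxin receptor named for Atp4b, the beta subunit gene of the parietal cell proton pump, so that the toxin ablates parietal cells. Mice received 225 ng of toxin on each of 3 days, or saline, and tissue was taken 24, 36, 48 or 72 h after the last dose. The saline control, the 24 h group and the 36 h group had 1 array each, the 48 h and 72 h groups had 2 each, and how many mice an array stands for is not stated. All differences from the control share that single array, so a trait of it enters each of them.

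p53 is a transcription factor that DNA damage, nucleotide shortage and other stresses stabilise. Its targets hold cells before division (Cdkn1a), restrain growth signalling (Sesn2, Phlda3), push cells toward apoptosis (Bbc3, Bax) or switch p53 off again (Mdm2). p53 binds a pair of similar decamers, and in the Mdm2 loop the product of its target, a ubiquitin ligase, marks p53 for degradation.

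The promoters are shown as a description, and the genes were chosen by name, not by a p53 site near a start. RefSeq windows of the build GRCm38.p6, from 250 bases before to 50 bases after an annotated start, were found for 8 of the 10 genes in 11 windows. With up to 13 bases between the decamers of the p53 response element and at most 2 mismatches, 3 of the 8 genes held a match: Cdkn1a, Ccng1 and Bax. The best windows of Bbc3, Mdm2, Phlda3, Eda2r and Sesn2 had 3, 4, 5, 6 and 6 mismatches. The same search, which reads both strands since the decamer pattern is its own reverse complement, found a match in 4.71% of 27025 genes. In Cdkn1a the full match, with 0 mismatches, had 12 bases between the decamers and lay in the window of the upstream start. The window of the downstream Cdkn1a start had 5 mismatches at best. With no base between them, a spacing chosen after the sequences were read, Cdkn1a and Ccng1 matched with 1 mismatch each and Bbc3 with 3. At most 1 mismatch at that spacing occurred in 22 genes (0.081%), and at most 3 in 1.63%. These letters are a description of the windows and show no binding. Capitals mark both decamers at that spacing in the sequences below, which run 5′ to 3′ on the strand of the gene.
Cdkn1a: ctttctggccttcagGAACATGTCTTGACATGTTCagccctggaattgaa
Ccng1: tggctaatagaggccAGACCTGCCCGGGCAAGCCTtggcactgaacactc
Bbc3: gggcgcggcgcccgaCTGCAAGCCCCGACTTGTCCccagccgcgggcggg
The Cdkn1a stretch lies at chr17:29090913-29090962 on the plus strand, with the capitals at positions -51 to -32 from the upstream of the gene's annotated starts. The Ccng1 stretch lies at chr11:40755447-40755496 on the minus strand, and the Bbc3 stretch at chr7:16309471-16309520 on the plus strand.

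The p53 targets did not move as a block after parietal cell ablation. None of the 9 lay above the control on all 6 toxin arrays, while 4 of them, Mdm2, Ccng1, Trp53inp1 and Sesn2, lay below it on all 6. Among all genes 20.2% lay above the control on all 6 toxin arrays and 22.6% below, and among genes at or above the median gene in mean signal, which include these 4, the share below was 30.6%. Cdkn1a, the best known target, stayed within 0.38 log2 units of the control on every array. No member was called in any tested comparison by limma at an adjusted p under 0.05, where the background was 0.0% of all genes at 48 h against control, 72 h against control, 72 h against 48 h and the slope over time. At an unadjusted p under 0.05, Ccng1, Mdm2 and Trp53inp1 were lower at 48 h and again at 72 h, beside 11.6% and 10% of all genes, and no member was higher, beside 8.16% and 7.93%. In the direct test of 72 h against 48 h no member passed that unadjusted threshold, beside 4.27% of genes higher and 2.8% lower.

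**Figure D1:**
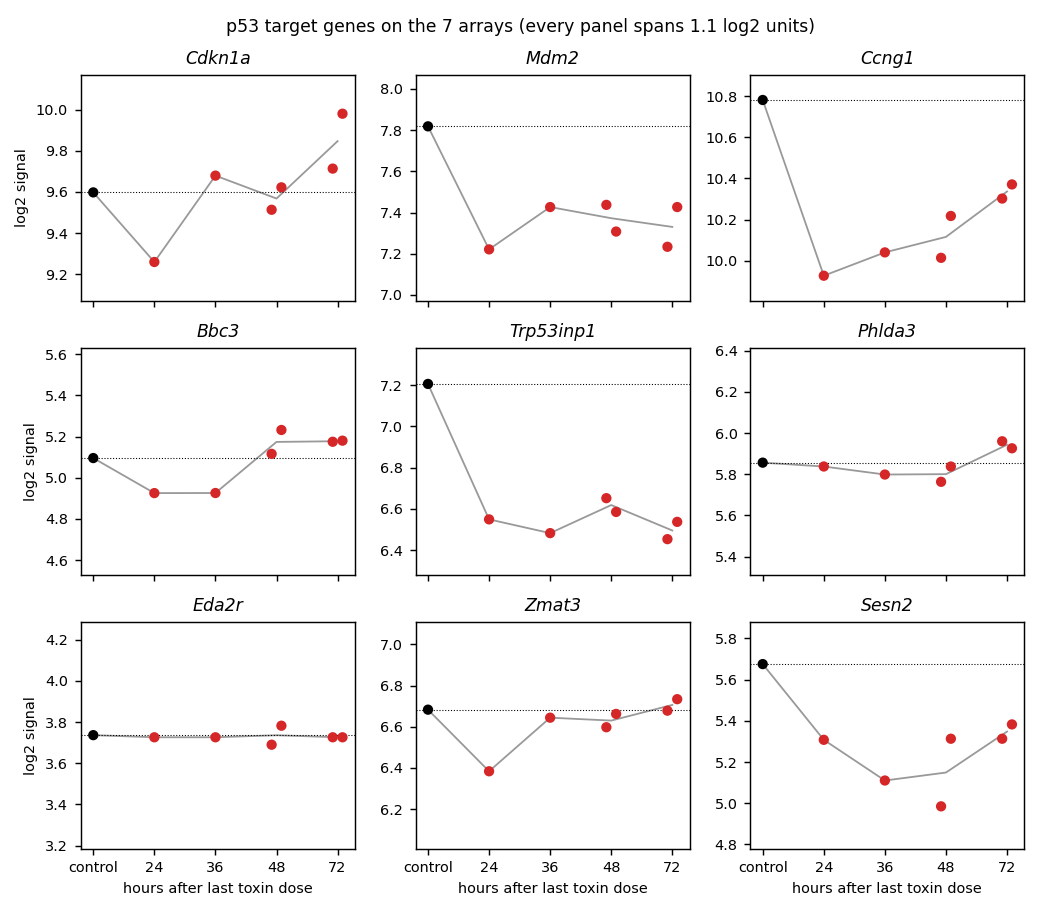
Log2 signal of each p53 target gene (vertical axis, every panel spanning the same width) on the control array (black) and on the toxin arrays (red) by hours after the last dose, drawn evenly spaced; lines join group means and the dotted line is the control value. Mdm2, Ccng1, Trp53inp1 and Sesn2 lie below the dotted line on all 6 toxin arrays, while Cdkn1a crosses it.

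Mdm2 and Ccng1 act back on p53: Mdm2 encodes the ubiquitin ligase that degrades it, and Ccng1 encodes cyclin G1, which recruits a phosphatase that activates Mdm2. Mdm2 had a log2 signal of 7.82 on the control array, 7.22 after 24 h, 7.43 after 36 h, 7.44 and 7.31 on the 48 h pair, and 7.23 and 7.43 on the 72 h pair. The toxin arrays overlapped one another and were all lower than the control. The difference from the control was -0.45 ± 0.12 (SE of the limma fit, 2 arrays against 1) at 48 h with an adjusted p of 0.216, and -0.49 ± 0.12 at 72 h with an adjusted p of 0.217. As a ratio the 72 h signal was 0.713 of the control.

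Ccng1 was the brightest member, with a mean signal at the 99th percentile of all genes. Its log2 signal was 10.78 on the control array, 9.93 after 24 h, 10.04 after 36 h, 10.01 and 10.22 on the 48 h pair, and 10.30 and 10.37 on the 72 h pair. It was lowest at 24 h, both 72 h arrays lay above both 48 h arrays, and every toxin array was lower than the control. The difference from the control was -0.85 at 24 h, -0.66 ± 0.11 at 48 h (adjusted p 0.143) and -0.44 ± 0.11 at 72 h (adjusted p 0.221). The slope over the 6 toxin arrays, which leaves out the control, was 0.20 ± 0.04 per 24 h, with an adjusted p of 0.440.

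Cdkn1a encodes p21, the inhibitor of cyclin-dependent kinases through which p53 halts the cell cycle. Its log2 signal was 9.60 on the control array, 9.26 after 24 h, 9.68 after 36 h, 9.51 and 9.62 on the 48 h pair, and 9.71 and 9.98 on the 72 h pair. Lowest of the series was the 24 h array and highest were both 72 h arrays, while the 48 h arrays lay on either side of the control. The difference from the control was -0.03 ± 0.15 at 48 h (adjusted p 0.986) and 0.25 ± 0.15 at 72 h (adjusted p 0.516). Against 48 h, the 72 h mean was 0.28 ± 0.12 higher, with an adjusted p of 0.757, and the 2 arrays of 72 h themselves differed by 0.27. The slope was 0.24 ± 0.08 per 24 h with an adjusted p of 0.489, and ranged from 0.18 to 0.31 when 1 of the 48 h or 72 h arrays was left out. Without the 24 h array, a single array and the lowest, it was 0.17 ± 0.10.

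Sesn2 and Zmat3 also belong to the arrest and survival arm: Sesn2 encodes a sestrin that restrains mTORC1, and Zmat3 a zinc finger protein that binds RNA. Sesn2 had a log2 signal of 5.68 on the control array, 5.31 after 24 h, 5.11 after 36 h, 4.98 and 5.31 on the 48 h pair, and 5.31 and 5.38 on the 72 h pair. All toxin arrays were lower than the control, and the 2 arrays of 48 h were 0.33 apart. The difference was -0.53 ± 0.17 at 48 h (adjusted p 0.255) and -0.33 ± 0.17 at 72 h (adjusted p 0.456), and without the first or second 48 h array it was -0.36 or -0.69.

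Zmat3 had a log2 signal of 6.68 on the control array, 6.38 after 24 h, 6.64 after 36 h, 6.60 and 6.66 on the 48 h pair, and 6.68 and 6.73 on the 72 h pair. Only the 24 h array stood apart, at -0.30, and the arrays of 36 to 72 h lay within 0.09 of the control. Phlda3, whose product competes with Akt for membrane lipids and so restrains Akt, spanned 0.20 log2 units over the 7 arrays. Its values were 5.86 on the control array, 5.84 after 24 h, 5.80 after 36 h, 5.76 and 5.84 on the 48 h pair, and 5.96 and 5.93 on the 72 h pair. Both 72 h arrays of Phlda3 lay above the control and the other toxin arrays below it, with 72 h against 48 h at 0.14 ± 0.05 and an adjusted p of 0.713.

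Among the death genes, Trp53inp1, which encodes a stress protein that promotes p53 phosphorylation and autophagy, was lower by a similar amount on each toxin array. Its log2 signal was 7.21 on the control array, 6.55 after 24 h, 6.48 after 36 h, 6.65 and 6.59 on the 48 h pair, and 6.45 and 6.54 on the 72 h pair. The 6 toxin arrays spanned 6.45 to 6.65 and were all lower than the control. The difference was -0.59 ± 0.07 at 48 h (adjusted p 0.121) and -0.71 ± 0.07 at 72 h (adjusted p 0.146), or 0.665 and 0.611 of the control signal. Its slope over the toxin arrays was -0.02 ± 0.05 per 24 h.

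Bbc3, which encodes the BH3-only protein PUMA, was close to the median gene in signal. Its log2 signal was 5.10 on the control array, 4.93 on both the 24 h and the 36 h array, 5.12 and 5.23 on the 48 h pair, and 5.17 and 5.18 on the 72 h pair. The 24 h and 36 h arrays lay below the control and the 4 later ones above it, with 48 h at 0.08 ± 0.07 from the control (adjusted p 0.702), a sign that turned under both other scalings. Eda2r, a receptor of the TNF receptor family on the X chromosome, was dim, at the 23.9th percentile, and lay between 3.69 and 3.78 on all 7 arrays. It took 4 distinct values over the 7 arrays, so its differences are at the resolution of the RMA summary.

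The levels above are brightness per probe set and do not rank the genes by transcript number. The 4 genes below the control on every toxin array were not the 4 brightest: Cdkn1a, at the 98.0th percentile, was not among them, and Sesn2, at the 52.4th, was.

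The members did not share a time course. All 9 lay below the control at 24 h, Eda2r and Phlda3 by only -0.01 and -0.02, and 8 of 9 at 36 h, beside 46.6% and 46.4% of all genes. Their median difference was -0.34 at 24 h and -0.17 at 36 h, against 0.00 for all genes at both times with quartiles of -0.17 and 0.14 at 24 h. At 48 h the median was -0.06 and at 72 h -0.01, the latter the value of the dim Eda2r, again against 0.00 for all genes. Without Bbc3 and Eda2r, the 2 members dimmer than the median gene, the medians were -0.37 after 24 h, -0.39 after 36 h, -0.45 after 48 h and -0.33 after 72 h. The medians thus depend on which members are counted. From 24 h to 48 h Cdkn1a went from -0.34 to -0.03 and Zmat3 from -0.30 to -0.05. Mdm2, Ccng1, Trp53inp1 and Sesn2 lay between -0.66 and -0.45 at 48 h, and Phlda3 was at -0.06. By group means, each gene set against its own other times, Ccng1 was furthest from the control at 24 h, Sesn2 at 36 h and Phlda3 at 72 h. Between members, the furthest was Ccng1 at 36 h (-0.74) and Trp53inp1 at 72 h (-0.71). No member reached a 2-fold difference at 24 h or 36 h, beside 1.2% of genes higher and 1.67% lower at 24 h and 0.933% and 1.61% at 36 h. Both 72 h arrays were above the 24 h array in 7 of 9 members, beside 32.0% of all genes, and below it in Trp53inp1, beside 30.8%. Both 72 h arrays were above both 48 h arrays for Cdkn1a, Ccng1, Phlda3 and Zmat3, beside 16.7% of all genes, and below them for Trp53inp1, beside 13%. At an unadjusted p under 0.05 the slope was upward for Bbc3, Ccng1, Cdkn1a and Zmat3, beside 4.22% of genes, and downward for none, beside 4.47%. Without the single 24 h array these slopes were 0.11 for Bbc3, 0.20 for Ccng1, 0.17 for Cdkn1a and 0.05 for Zmat3. With it they were 0.13, 0.20, 0.24 and 0.12.

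**Figure D2:**
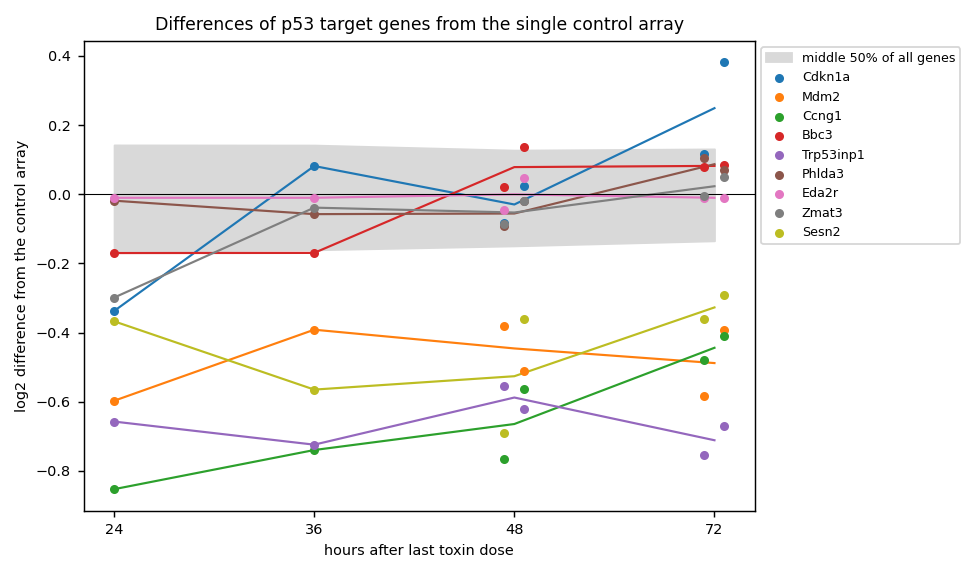
Log2 difference of each p53 target gene from the control array (vertical axis) by hours after the last dose, drawn evenly spaced; points are arrays, lines join group means and the grey band spans the quartiles of all genes. Ccng1, Trp53inp1, Mdm2 and Sesn2 lie below the band at each time, and Cdkn1a lies below it at 24 h and above it at 72 h by its mean of 0.25.

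The control and 24 h arrays differed from the rest in sex-linked genes. Xist was at 8.13 and 9.17 on them against 2.70 to 3.27 on the other 5 arrays, and the Y-linked gene Eif2s3y at 3.81 and 3.40 against 7.79 to 8.39. The 24 h array thus matched the control in this, and on it Mdm2, Ccng1, Trp53inp1 and Sesn2 were at -0.60, -0.85, -0.66 and -0.37. The tested differences from the control, at 48 h and 72 h, set arrays low in Xist against a control high in Xist. In these differences toxin and sex-linked pattern cannot be told apart. Comparisons of the 24 h array with later toxin arrays cross the same split, so time and pattern cannot be told apart there. The slope that includes the 24 h array shares this split in part. The part of sex in the members' values was not tested. The corpus label was borne out by parietal cell, chief cell and pit cell genes such as Atp4b (12.94), Pgc (13.37) and Gkn2 (13.07) on the control array, while Lipf, listed as a chief cell gene, was dim at 3.01. Squamous genes of the forestomach varied between arrays within pairs: the difference of Krt4 from the control was -3.58 and -0.04 on the 48 h pair and 0.72 and -3.67 on the 72 h pair. Sesn2 differed by 0.33 within the 48 h pair and by 0.07 within the 72 h pair, and the part of squamous tissue in the members' values was not tested.

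Genes of parietal cells, chief cells and endothelium were lower where the 4 members were lower. Of 14 parietal cell markers 11 lay below the control on all 6 toxin arrays. The share was 22.6% among all genes and 30.6% among genes at or above the median gene. The median parietal marker had a log2 signal of 9.65 on the control, 8.70 after 24 h, 9.07 after 36 h, 8.92 and 8.96 on the 48 h pair, and 9.32 and 9.58 on the 72 h pair. Ccng1 was likewise lowest at 24 h and, after the control, highest on the 72 h arrays. Mdm2 was also lowest at 24 h. Its 72 h mean, at -0.49 from the control, was no nearer to it than the 48 h mean at -0.45. Trp53inp1 was lower at 72 h than at 48 h. Over the 7 arrays the Pearson correlation with the parietal median was 0.89 for Ccng1, 0.67 for Sesn2, 0.65 for Mdm2 and 0.49 for Trp53inp1. It was 0.78 for Zmat3 and 0.73 for Cdkn1a, so this likeness was not particular to the 4. Phlda3, Bbc3 and Eda2r were at 0.59, 0.42 and 0.04. All 6 endothelial markers lay below the control on all 6 toxin arrays, with medians from -1.24 to -0.92, and 5 of 6 chief cell markers did so, with medians from -0.98 to -0.76, beside the same shares of genes. In tissue RNA, fewer cells of a type and less RNA per cell cannot be told apart. The part of these cell types in the values of the members was not tested.

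**Figure D3:**
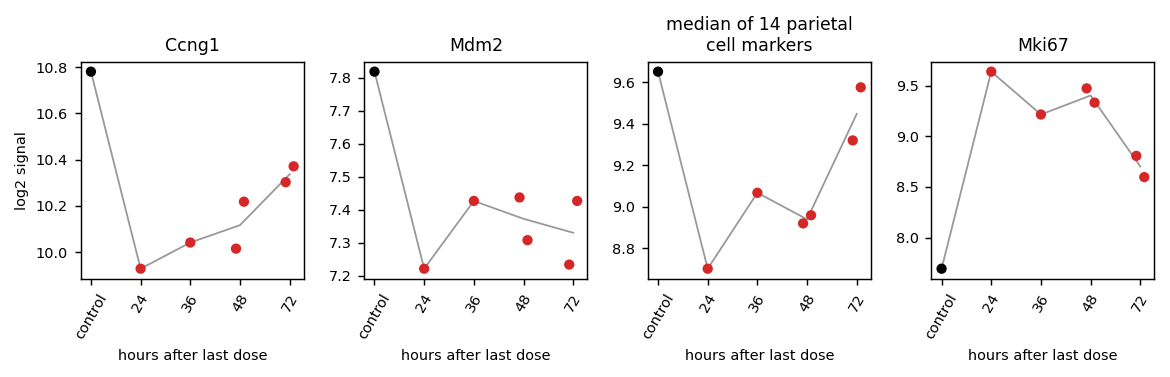
Log2 signal (vertical axes, scaled to each panel) of Ccng1, of Mdm2, of the median parietal cell marker and of the proliferation gene Mki67, on the control (black) and toxin arrays (red) by hours after the last dose, drawn evenly spaced. Ccng1 and the parietal median are lowest at 24 h and higher at 72 h, and Mki67 runs the other way; Mdm2 is also lowest at 24 h, with 72 h arrays at 7.23 and 7.43.

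The rest of the pathway was read from 6 lists chosen by role, with 72 of 78 genes measured. The gene of p53 itself, Trp53, had no probe set annotated to it alone. In limma none of the 72 genes was called in the 48 h, 72 h, 72 h against 48 h or slope comparison, so the counts below are of arrays on one side of the control.

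Regulators of p53 lay mostly above the control. Of 13 measured regulators 8 were above the control on all 6 toxin arrays and none below on all 6, beside 20.2% and 22.6% of all genes, and their median difference was 0.25 at 24 h and 0.14 at 72 h. Mdm4, the partner of Mdm2 that masks the activation domain of p53, had a log2 signal of 7.38 on the control array, 7.85 after 24 h, 8.01 after 36 h, 8.04 and 7.96 on the 48 h pair, and 7.61 and 7.66 on the 72 h pair. All toxin arrays were higher than the control, and both 72 h arrays were lower than both 48 h arrays. The difference from the control was 0.62 ± 0.07 at 48 h (adjusted p 0.121) and 0.25 ± 0.07 at 72 h (adjusted p 0.227). Mdm2 and Mdm4, the paired inhibitors of p53, thus lay on opposite sides of the control on each toxin array. Chek1, the checkpoint kinase gene of replication stress, was 1.19 above the control at 24 h and 0.65 ± 0.10 at 48 h, and Chek2, its counterpart in the response to strand breaks, was 0.47 above at 24 h and 0.84 and 0.28 above on the 48 h pair. Cdkn2a, the locus of Arf and p16, was 0.22 above at 24 h and 0.29 and 0.70 above on the 48 h pair.

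Other p53 targets in arrest, metabolism and repair lay on both sides. Of 19 genes 7 lay below the control on all 6 toxin arrays, beside 22.6% of all genes. Above it on all 6 lay 5, beside 20.2%, and 7 were on neither side throughout. Among genes at or above the median gene in signal the shares were 30.6% below and 22.2% above. Rrm2b, the p53-induced subunit of ribonucleotide reductase, had a log2 signal of 7.27 on the control array and between 6.45 and 6.68 on the toxin arrays, with a difference of -0.75 ± 0.09 at 48 h (adjusted p 0.121). Sesn1, the other sestrin gene in the list, was at -0.61 ± 0.12 at 48 h, and Ddit4, an mTORC1 inhibitor that also answers to glucocorticoids and hypoxia, at -0.72 ± 0.29. Sfn, which encodes the 14-3-3 sigma protein of epithelia, was 0.25 and 0.80 above the control on the 48 h pair and 0.42 above at 72 h.

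Of 12 other death targets 5 were above the control on all 6 toxin arrays, beside 20.2% of all genes, and 3 below, beside 22.6%. The 5 include Casp1, which was dim, at 2.98 on the control array, with a smallest difference of 0.007. The 3 include Steap3, with differences of only -0.082 to -0.0055. Apaf1, the scaffold of the apoptosome, was 0.46 ± 0.08 above at 48 h (adjusted p 0.143) and 0.50 ± 0.08 at 72 h (adjusted p 0.159). Aen, an apoptosis nuclease gene, was 0.30 ± 0.13 above at 48 h and 0.69 ± 0.13 at 72 h, with 72 h against 48 h at 0.40 ± 0.11 (adjusted p 0.705). Siva1, an apoptosis factor, was 0.45 above at 24 h, and Tnfrsf10b, the mouse TRAIL receptor, was -0.15 at 24 h and -0.28 at 48 h.

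In the BCL2 family apart from Bbc3 and Bax, 2 of 12 genes were above the control on all 6 toxin arrays, beside 20.2% of all genes, and none below, beside 22.6%. Bak1, the partner of Bax in forming mitochondrial pores, had a log2 signal of 6.96 on the control array, 7.53 after 24 h, 8.13 after 36 h, 7.84 and 7.46 on the 48 h pair, and 7.73 and 7.90 on the 72 h pair. Its difference was 0.69 ± 0.21 at 48 h (adjusted p 0.236) and 0.86 ± 0.21 at 72 h (adjusted p 0.209). Bik, a BH3-only gene, was 0.25 above at 48 h, Bcl2a1a was 0.03 above and the survival gene Mcl1 was at -0.00.

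Among the other inhibitors of cyclin-dependent kinases, Cdkn1c, which encodes p57, had the largest difference of any gene in the 6 lists. Its log2 signal was 7.44 on the control array, 5.41 after 24 h, 5.19 after 36 h, 5.47 and 5.04 on the 48 h pair, and 5.42 and 5.33 on the 72 h pair. All toxin arrays were about equally low, with -2.18 ± 0.22 at 48 h (adjusted p 0.121) and -2.06 ± 0.22 at 72 h (adjusted p 0.146). Cdkn2b, the p15 gene, was at -1.27 at 24 h and -1.04 ± 0.45 at 48 h, and its 72 h arrays lay on either side of the control, at -0.50 and 0.24, while Cdkn1b, the p27 gene, was at -0.41 at 24 h and -0.54 at 72 h. Cdkn2d, the p19 gene, was at 0.15 at 24 h and -0.32 at 72 h.

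Cell division genes that p53 lowers through p21 were all above the control, 11 of 11 on all 6 toxin arrays, beside 20.2% of all genes. Their medians were 1.33 after 24 h, 1.06 after 36 h, 0.96 after 48 h and 0.57 after 72 h. Mki67 was 1.94 above at 24 h and 1.01 ± 0.13 at 72 h, Top2a 1.87 and 0.64, Birc5, the survivin gene, 1.45 and 0.65, and the mitotic cyclin gene Ccnb2 1.43 and 0.92. At an unadjusted p under 0.05, 10 of the 11 were higher at 48 h, beside 8.16% of all genes, and 5 of the 11 at 72 h, beside 7.93%. Their median was highest at 24 h, on the array where Cdkn1a, Mdm2, Ccng1, Bbc3 and Zmat3 were lowest. At 36 h Cdkn1a was 0.08 above the control, with the median of the division genes at 1.06. With array medians subtracted that Cdkn1a value was -0.016. A link between Cdkn1a and these genes was not tested.

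**Figure D4:**
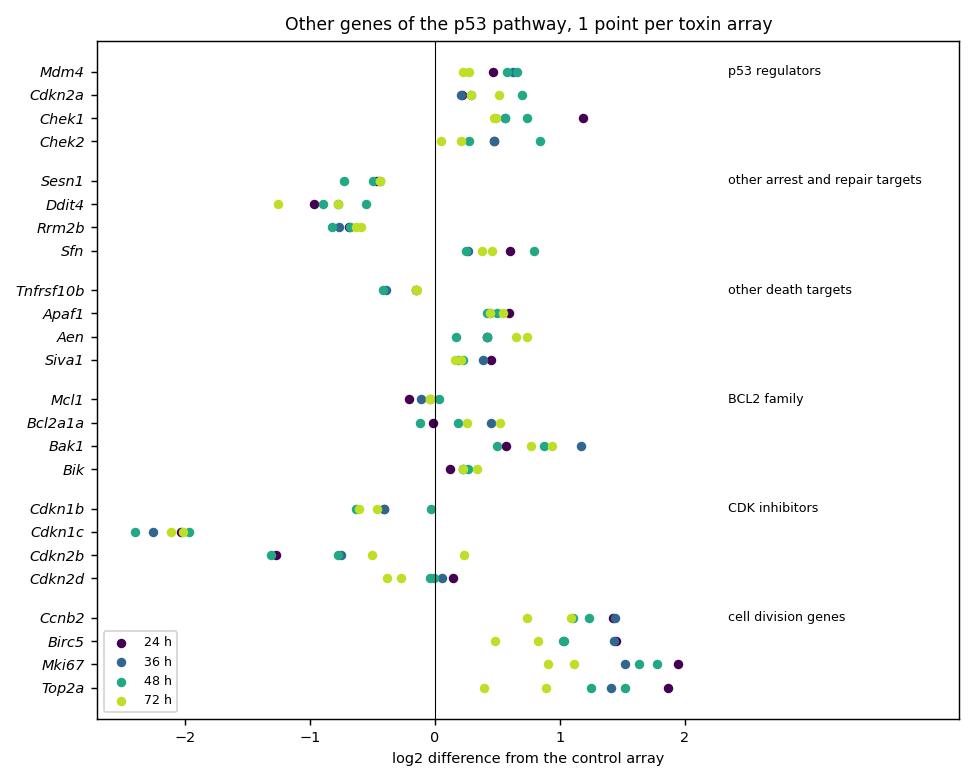
Log2 difference from the control array (horizontal axis) of the named genes of the 6 other lists of the p53 pathway, with 1 point per toxin array coloured by time. Mdm4, Chek1, Apaf1 and Bak1 lie to the right of 0 on each array, Rrm2b, Sesn1, Ddit4 and Cdkn1c to the left, and the cell division genes to the right with 72 h nearest to 0.

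The genes most like 3 of the members over the 7 arrays were taken by Pearson correlation among 1389 genes of at least median signal and an SD of at least 0.3, as a description without a test. For Cdkn1a these were the complement gene C7 (r = 0.98), the triglyceride lipase gene Pnpla2 (0.95) and the sterol synthesis gene Nsdhl (0.94), each lowest at 24 h and highest on the second 72 h array. For Mdm2 they were Napb, a vesicle fusion gene (0.97), the peroxisomal protease gene Lonp2 (0.97) and the transcription factor gene Klf9 (0.97). For Ccng1 they were Rph3al, a gene of granule exocytosis (0.99), the sorting nexin gene Snx6 (0.99) and Aldh6a1, a gene of valine breakdown (0.98). With 7 arrays of which 1 is the control, the Mdm2 correlations rest largely on the step between control and toxin. Ccng1 and its 3 genes shared such a step. They also ranked the toxin arrays in the same order, from 24 h lowest to the second 72 h array highest. The 3 genes were picked by correlation over these same arrays, so the shared order is no separate likeness.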

How the data were processed

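Log2 signal for 41345 probe sets on 7 arrays was deposited by the authors, who made it from biotinylated cDNA (Affymetrix WT Plus kit) with RMA in Partek, per the submitters' processing notes; tool versions and genome build: not given in the sources used here. Array medians ran from 4.56 to 4.71, and columns of samples not used number 0. The number of arrays limits the precision.

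Probe sets with 1 annotated gene (23521) were kept, the brightest per gene, which left 22180 genes. Differences were fitted by limma 3.58.1 (R 4.3.3; mean per group over all 7 arrays, two-sided, Benjamini-Hochberg over all genes), with 2 residual and 1.15 prior degrees of freedom; the slope used the 6 toxin arrays, with 4 and 1.83. The lone control is assumed to vary like the 48 h and 72 h pairs. The labels do not say that arrays came from separate animals, so p-values measure only the spread between arrays, which may be technical. The fit was tested on simulated data, where the smallest changes were not called. These were near the 48 h differences of Mdm2 and Sesn2 and smaller than those of Ccng1 and Trp53inp1. The sizes and spread of those data were set beforehand and not taken from these arrays. They do not measure how often a change in the members would be called. Apart from the slope, the 24 h and 36 h arrays were compared as values, with no test.

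The members, lists and tests were chosen with earlier results of these data known. Genes named: all members, the 4 per list with the largest mean difference over the toxin arrays plus Mdm4, and the 3 most correlated with Cdkn1a, Mdm2 and Ccng1. Promoter windows are RefSeq's for GRCm38.p6. Alternatives were scaling, a filter on dim genes, probe set averaging, an intensity trend, a replicate block and leaving out arrays.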

Additional observations from a re-analysis of the deposited data

Results flagged for a closer look

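Some genes lay on opposite sides of the control at different times, which flagged them; the differences between times that involve the single 24 h or 36 h array were not tested. Steps from the 24 h array to later arrays also cross the split in sex-linked genes. Cdkn1a was below the control at 24 h and above it at 36 h and 72 h. The steps were 0.42 between 24 h and 36 h and 0.59 between 24 h and 72 h. Its 36 h value was only 0.08 and turned to -0.016 with array medians subtracted. Bbc3 was below at 24 h and 36 h and above afterwards, by 0.25 from 24 h to 48 h, 0.25 from 24 h to 72 h, 0.25 from 36 h to 48 h and 0.25 from 36 h to 72 h. Phlda3 was below at 24 h and 36 h and above at 72 h, by 0.11 and 0.14. Bcl2a1a was just below at 24 h and above at 36 h and 72 h, by 0.46 and 0.40. Cdkn2d ran the other way, with -0.17 from 24 h to 48 h, -0.47 from 24 h to 72 h, -0.078 from 36 h to 48 h and -0.38 from 36 h to 72 h.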

How the results depend on the processing

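No member was called under any alternative, with adjusted p from 0.0608 to 1 at 48 h and from 0.101 to 1 at 72 h. Mdm2, Ccng1, Trp53inp1 and Sesn2 stayed below the control on all 6 toxin arrays under both scalings; the number of members below on all was 4 to 5 in every setting tried, including without the 24 h or 36 h array (4 each, added after seeing the data). Scaling mattered for counts: limma called 7 genes at 48 h and 5 at 72 h after quantile normalisation again, and 167 and 30 with array medians subtracted, a step that shifted the median gene by -0.04 to -0.14. The cause was not tested. The members' median went from -0.34 to -0.30 and -0.41 at 24 h, from -0.17 to -0.26 and -0.27 at 36 h, from -0.06 to -0.12 and -0.18 at 48 h and from -0.01 to -0.051 and -0.062 at 72 h with quantile normalisation and medians subtracted, and ran from -0.093 to -0.021 at 48 h when 1 array of the pair was left out. Without the members dimmer than the median gene, an alternative added after seeing the data, the medians were -0.37 after 24 h, -0.39 after 36 h, -0.45 after 48 h and -0.33 after 72 h. Signs of near-zero values turned in 22 of 352 cases. With quantile normalisation Cdkn1a was 0.032 and Bbc3 -0.018 at 48 h, and Eda2r 0.042 at 72 h against 48 h and 0.023 in slope. With medians subtracted Bbc3 was -0.041 at 48 h, Zmat3 -0.029 at 72 h, Mdm2 0.025 and Eda2r 0.057 at 72 h against 48 h, and Eda2r 0.0195 in slope. Without the 24 h array the Mdm2 slope was -0.057. Leaving out 1 array of a pair gave Cdkn1a -0.084 to 0.025 and Eda2r -0.047 to 0.046 at 48 h, Zmat3 -0.005 to 0.051 at 72 h, Mdm2 -0.14 to 0.054, Bbc3 -0.0545 to 0.061 and Eda2r -0.056 to 0.036 at 72 h against 48 h, and slopes of -0.017 to 0.079 for Mdm2, -0.0295 to 0.012 for Trp53inp1 and -0.0018 to 0.0011 for Eda2r. Replicate numbers share only a label: across 22180 genes, which are not independent, the within-pair differences of 48 h and 72 h correlated at -0.13. The fit with a replicate block called 0 genes at 72 h against 48 h, as did the crossed pairing, added after seeing the data.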
